A study of Mus musculus with 12 samples.

Results

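Satellite glial cell genes were followed through intact, dissociated and magnetically sorted dorsal root ganglia (DRG). The set held 8 genes, Apoe, Fabp7, Slc1a3, Glul, Ednrb, Dbi, Ndrg2 and Mmd2, matched by gene symbol, and all 8 were among the 24490 genes of the expression table. The set had been chosen on the FPKM of MACS-sorted against unsorted and intact samples, with the loss on sorting in view, so levels in sorted samples are given as a description, without a test. DRG of all spinal levels came from adult C57Bl/6 mice and were profiled by sequencing of polyA-selected RNA, with 4 samples in each of 3 groups. Intact DRG, from 1 mouse per sample, were frozen without dissociation. Unsorted DRG, labelled Dissociated and from 2 mice per sample, were digested with dispase, collagenase and DNAse, triturated and filtered. MACS-sorted DRG, from 8 mice per sample, went through the same dissociation and then magnetic-activated cell sorting (MACS), in which a cocktail of biotinylated antibodies tagged non-neuronal cells, a magnetic column held them back and the eluted cells were used. Pooling of 2 or 8 mice averages over animals, so the spread between samples is a spread between pools in these 2 groups.

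Satellite glial cells form a thin envelope around each neuronal cell body of the DRG. They clear glutamate and potassium from the narrow space around the neuron, convert glutamate to glutamine, and couple to one another through gap junctions. They share many genes with astrocytes of the central nervous system and with Schwann cells, the other glia of peripheral nerve, so few genes mark them alone.

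Expression was given in FPKM, fragments scaled to transcript length and to the number of mapped fragments, which allows levels of different genes to be compared per length. The estimated depth lay between 13450000 and 19250000 fragments per sample. Summed over 8 pan-neuronal genes, the level in MACS-sorted samples was 98.1% to 129% of the unsorted mean. The single genes ranged from 51.9% for Snap25 to 174% for Prph, which the paper counts among known markers of small neurons. The 8 rows of red blood cell genes summed to 1667 to 15312 FPKM in MACS-sorted samples and 112 to 399 FPKM in unsorted samples. Unsorted replicates 1 and 2 were the most alike of all replicate pairs, with a median absolute log2 difference of 0.0288 over 1223 abundant genes and 0.0612 for the next pair, so results were also computed with these replicates averaged into 1 sample.

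MACS-sorted samples held little of the RNA of most satellite glial genes. The mean level after sorting was under 5% of the unsorted mean for 5 of the 8 genes, Ednrb, Mmd2, Slc1a3, Apoe and Fabp7, whereas Dbi kept 13.9%, Ndrg2 23.6% and Glul 67.0%. Of 12019 genes, 1.63% kept less than 5% of the unsorted mean. The median residual level was 1.38% for the 8 genes and 97.9% over all those genes. All 4 MACS-sorted samples lay below all 4 unsorted samples for each of the 8 genes, as they did for 27.8% of genes tested, while 18.4% lay above in the same way. In RNA from whole samples, fewer cells of a type and less RNA per cell cannot be told apart.

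**Figure D1:**
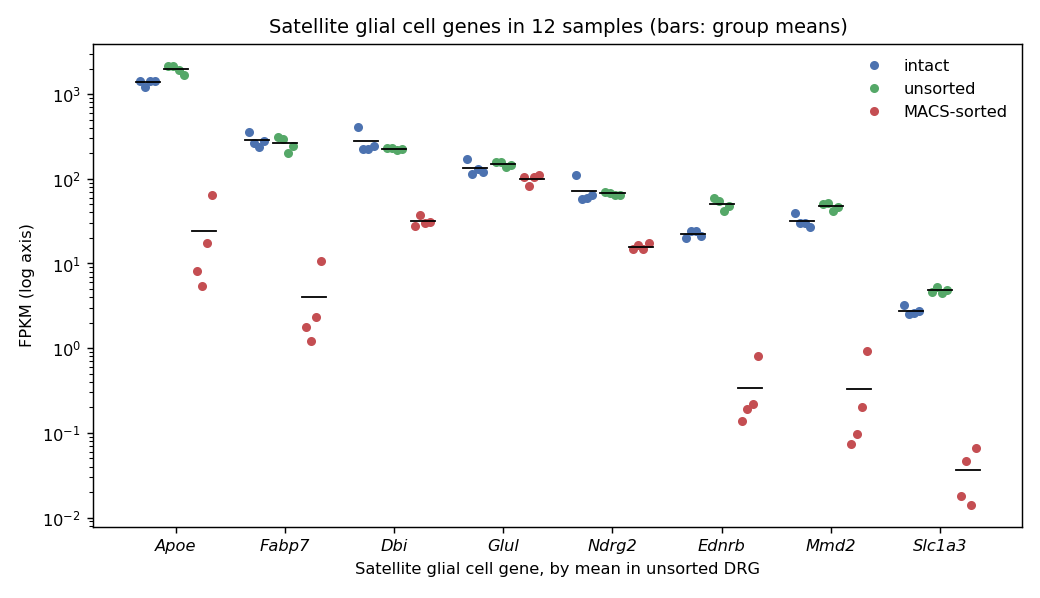
FPKM of the 8 satellite glial genes on a log axis, with 1 point per sample, 4 samples per group and bars at group means. MACS-sorted points lie below the unsorted points for every gene, by a mean fold of 1.49 for Glul and up to 149.6 for Ednrb.

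Apoe and Fabp7 encode lipid carriers, a secreted apolipoprotein and a small fatty acid binding protein of the cytoplasm. Apoe, on chromosome 7 of mm10 from 19696244 to 19699166, stood at 1432, 1222, 1411 and 1413 FPKM in intact replicates 1 to 4, at 2137, 2149, 1917 and 1674 FPKM in unsorted replicates, and after sorting at 8.07, 5.44, 17.5 and 65.1 FPKM. It was the most abundant gene of the whole table in unsorted replicates 1 and 2, ranked 3 in the other two, and ranked from 844 to 7465 after sorting. Its sorted mean was 24.02 ± 27.8 FPKM (SD, n = 4) against 1969 ± 224 FPKM (SD, n = 4) in unsorted DRG, 82.0-fold lower. The sorted SD exceeded the sorted mean, and replicate 4 stood at 6.29-fold the mean of the other sorted replicates. Fabp7, on chromosome 10 from 57784923 to 57788450, stood at 357, 265, 235 and 278 FPKM in intact, 310.1, 295, 203 and 242 FPKM in unsorted, and 1.79, 1.21, 2.35 and 10.8 FPKM in MACS-sorted replicates. Intact and unsorted values of Fabp7 overlapped, and its sorted mean of 4.04 ± 4.53 FPKM (SD, n = 4) was 65.0-fold below the unsorted mean.

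Slc1a3 and Glul act in sequence on glutamate, the first as the transporter GLAST that takes it up and the second as glutamine synthetase that converts it to glutamine. Slc1a3, on chromosome 15 from 8634124 to 8710807, was the least abundant of the 8 genes, at 3.22, 2.54, 2.62 and 2.75 FPKM in intact, 4.62, 5.34, 4.50 and 4.87 FPKM in unsorted, and 0.0180, 0.0467, 0.0141 and 0.0670 FPKM in MACS-sorted replicates. The 4 sorted values corresponded to an estimated 9 fragments together, so that the residual of 0.754% of the unsorted mean had an exact Poisson 95% interval from 0.345% to 1.43%, which covers counting error only. Glul, on chromosome 1 from 153899929 to 153909723, where it overlaps the microRNA gene Mir8114, stood at 171, 114, 131 and 119 FPKM in intact, 160, 157, 138 and 144 FPKM in unsorted, and 104, 82.3, 105 and 111 FPKM in MACS-sorted replicates. It was the only gene of the 8 with a residual level above 25%, and its sorted mean of 100.3 ± 12.4 FPKM (SD, n = 4) was 1.49-fold below the unsorted mean. In the sorted samples the level of Glul thus exceeded that of Apoe in every replicate, whereas in unsorted DRG the level of Apoe was the higher in every replicate.

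Ednrb, on chromosome 14 from 103814615 to 103844476, encodes the endothelin B receptor, and Mmd2, on chromosome 5 from 142563481 to 142608752, encodes a membrane protein of the progestin and adipoQ receptor family. Ednrb stood at 20.1, 24.1, 23.9 and 21.0 FPKM in intact, 58.7, 55.03, 41.1 and 47.3 FPKM in unsorted, and 0.139, 0.192, 0.219 and 0.801 FPKM in MACS-sorted replicates. All unsorted samples were above all intact samples, and the residual level after sorting, 0.668%, was the lowest of the 8 genes. Mmd2 stood at 39.3, 29.7, 29.8 and 27.2 FPKM in intact, 51.0, 51.9, 41.8 and 45.8 FPKM in unsorted, and 0.0739, 0.0959, 0.204 and 0.930 FPKM in MACS-sorted replicates. Its sorted mean of 0.326 ± 0.407 FPKM (SD, n = 4) was 146-fold below the unsorted mean. The residual levels of Ednrb, Mmd2 and Slc1a3 lay between 0.668% and 0.754%, closer together than the spread between their own sorted replicates, so these 3 genes could not be ordered.

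Dbi encodes a protein that binds acyl-CoA esters and is the source of peptides acting at the benzodiazepine site of GABA receptors, and Ndrg2 encodes a member of the N-myc downstream regulated family that is used as an astrocyte marker in brain. Dbi, on chromosome 1 from 120113280 to 120121096, stood at 414, 223, 225 and 241 FPKM in intact, 229, 233, 221 and 225 FPKM in unsorted, and 27.8, 37.0, 30.0 and 31.2 FPKM in MACS-sorted replicates. Ndrg2, on chromosome 14 from 51905271 to 51913488, stood at 109.7, 57.6, 59.2 and 63.8 FPKM in intact, 69.8, 68.3, 64.8 and 65.1 FPKM in unsorted, and 14.7, 16.4, 14.8 and 17.3 FPKM in MACS-sorted replicates. For both genes intact replicate 1 stood far above the other 3 intact samples, by 1.80-fold for Dbi and 1.82-fold for Ndrg2, while the sorted replicates were close together. Dbi was 7.21-fold and Ndrg2 4.24-fold lower in sorted than in unsorted DRG.

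The 250 bases before the annotated start of 4 of these genes are shown because they span the range of residual levels, from Slc1a3 through Apoe and Fabp7 to Glul. Sequences are from RefSeq on GRCm38.p6, the same assembly as mm10, written 5′ to 3′ on the strand of the gene, and capitals mark matches on either strand to the letters searched. ACAAAG and the related ACAATG are cores bound by SOX factors. The GC box was searched as GGGCGG. The CCAAT box was searched by its own letters, and the TATA box as TATAAA. In the sequences shown, no match overlapped another. The start used for Apoe lies 22 bases from that in the expression table.
Slc1a3 promoter (chr15:8710808-8711057, minus strand): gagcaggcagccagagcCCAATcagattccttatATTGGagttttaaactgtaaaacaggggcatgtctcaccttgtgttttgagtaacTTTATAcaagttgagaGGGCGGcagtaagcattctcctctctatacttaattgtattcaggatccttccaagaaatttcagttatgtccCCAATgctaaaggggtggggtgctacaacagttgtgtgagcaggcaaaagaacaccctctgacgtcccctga
Apoe promoter (chr7:19699189-19699438, minus strand): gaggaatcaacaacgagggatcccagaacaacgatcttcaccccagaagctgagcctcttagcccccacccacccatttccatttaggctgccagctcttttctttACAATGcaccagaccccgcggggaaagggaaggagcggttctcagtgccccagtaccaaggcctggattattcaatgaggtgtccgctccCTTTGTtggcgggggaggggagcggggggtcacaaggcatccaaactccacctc
Fabp7 promoter (chr10:57784673-57784922, plus strand): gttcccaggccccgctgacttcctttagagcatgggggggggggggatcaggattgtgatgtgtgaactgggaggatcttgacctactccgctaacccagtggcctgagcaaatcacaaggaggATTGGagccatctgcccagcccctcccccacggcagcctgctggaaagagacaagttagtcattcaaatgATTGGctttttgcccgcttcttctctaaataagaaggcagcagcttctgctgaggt
Glul promoter (chr1:153899679-153899928, plus strand): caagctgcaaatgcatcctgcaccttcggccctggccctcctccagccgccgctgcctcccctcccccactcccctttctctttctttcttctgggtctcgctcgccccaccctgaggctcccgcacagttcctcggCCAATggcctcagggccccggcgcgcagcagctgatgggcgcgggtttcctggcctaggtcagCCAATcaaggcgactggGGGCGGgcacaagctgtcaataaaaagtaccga

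Apoe was the only one of the 8 promoters to hold a SOX core, with ACAAAG on the minus strand 54 bases and ACAATG on the plus strand 144 bases before its start. Among all 32851 promoters of that length 16.46% held ACAAAG and 10.69% held ACAATG. The CCAAT box occurred in 5 of the 8 promoters, those of Fabp7, Slc1a3, Glul, Ednrb and Mmd2, against 33.85% of all promoters. The start used for Ednrb lay 775 bases from that in the expression table, so its match precedes a different start. GGGCGG occurred in the promoters of Slc1a3, Glul and Mmd2, against 32.74%. TATAAA occurred in the promoter of Slc1a3 and in 12.37% of all promoters. The number of CpG dinucleotides ran from 2 in Slc1a3 to 23 in Dbi, with a median of 6 over all promoters. A match describes letters and not a bound site.

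The residual level differed between the sorted samples, and replicate 4 was the highest for 7 of the 8 genes, all but Dbi, whose highest value was in replicate 2. Over all genes, replicate 4 was the highest of the sorted samples for 28.9%. As a share of the unsorted mean, Apoe stood at 0.410%, 0.276%, 0.889% and 3.30% in sorted replicates 1 to 4, and Fabp7 at 0.682%, 0.461%, 0.895% and 4.11%. For these lipid carriers, replicate 4 held several times the level of any other sorted sample. Ednrb stood at 0.275%, 0.381%, 0.433% and 1.59% of the unsorted mean, Mmd2 at 0.155%, 0.201%, 0.429% and 1.95%, and Slc1a3 at 0.372%, 0.965%, 0.293% and 1.39%. Glul ran from 55.02% in replicate 2 to 73.9% in replicate 4, Ndrg2 from 22.0% to 25.9%, and Dbi from 12.2% to 16.3%, so the 3 genes with the highest residual levels varied least in proportion. Without replicate 4 the residual was 0.525% for Apoe, 0.679% for Fabp7, 0.363% for Ednrb and 0.262% for Mmd2, each more than 1.5 times lower than with it, and it was 0.543% for Slc1a3, 64.7% for Glul, 13.9% for Dbi and 22.9% for Ndrg2.

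**Figure D2:**
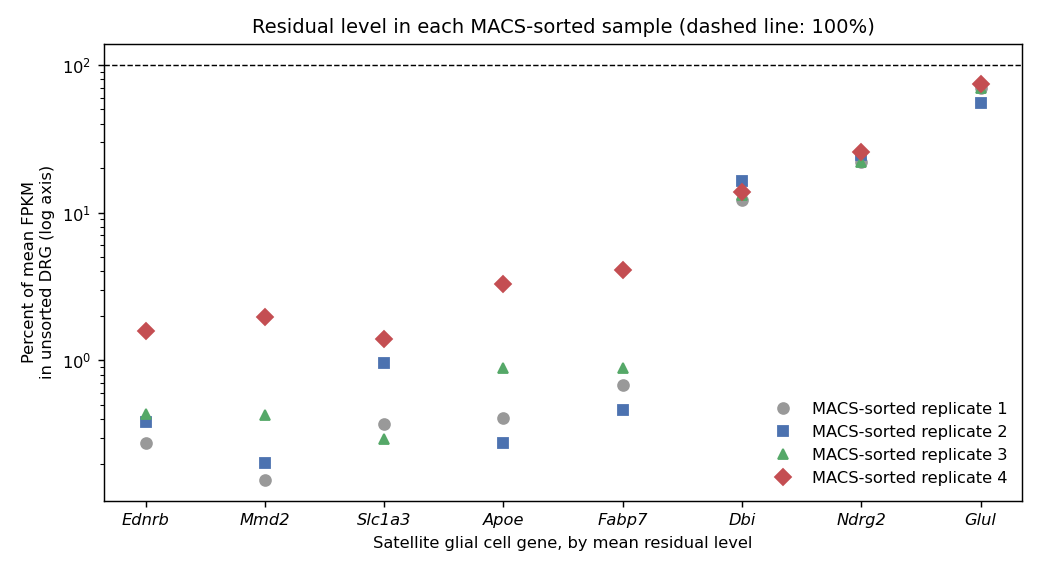
Level of each satellite glial gene in each of the 4 MACS-sorted samples as percent of the mean of 4 unsorted samples, on a log axis, with a dashed line at 100%. Replicate 4 (red) is highest for all genes but Dbi, and stands furthest from the others for Mmd2, at 7.46-fold the mean of replicates 1 to 3.

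The low values rested on few fragments. The estimates took the longest annotated transcript of each gene, so a shorter transcript would lower them. Ednrb had 3 annotated lengths and Apoe 2. Mmd2 had an estimated 3.2, 4.7, 11 and 42.6 fragments in sorted replicates 1 to 4, and Ednrb 7.4, 11.8, 14.8 and 45.8. Fabp7 had 12.3 to 102 and Apoe 106 to 1184. On these estimates the higher level of replicate 4 was carried by more than 40 fragments in each of these 4 genes. For Slc1a3 it was carried by only 3.9 against 1.0 to 2.9 fragments. The order of sorted replicates for Slc1a3 was therefore not resolved at this depth.

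Markers of other non-neuronal cells moved with the satellite glial genes across the sorted samples. Replicate 4 was the highest sorted sample for 14 of 15 other satellite glia genes and 7 of 7 Schwann cell genes. The same held for 6 of 6 fibroblast genes, 6 of 8 macrophage genes, 5 of 6 endothelial genes and 1 of 8 pan-neuronal genes. Of 8 red blood cell rows, 5 were highest in replicate 4 and 2 were listed at 0 in every sorted sample. Over all genes the share was 28.9%. The summed level of the 8 satellite glial genes was 5.63%, 5.14%, 6.11% and 8.53% of its unsorted mean in sorted replicates 1 to 4. The summed Schwann cell level ranged from 19.7% to 22.4% in replicates 1 to 3 and was 45.6% in replicate 4, the fibroblast level from 2.89% to 5.28% and 12.3%, and the macrophage level from 3.43% to 4.27% and 14.8%. Of the 8 macrophage genes 5, 3, 3 and 1 were listed at 0 in sorted replicates 1 to 4, among them Emr1 and C1qc in replicates 1 to 3 and C1qa in replicates 3 and 4, whereas Aif1 kept 47.5% to 119% of its unsorted mean. Of the 6 fibroblast genes 1, Lum, was listed at 0 in replicates 1 to 3. The endothelial sum was 109%, 28.1%, 92.8% and 153% in the 4 sorted replicates. The part of these cells in the level of the satellite glial genes was not tested.

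**Figure D3:**
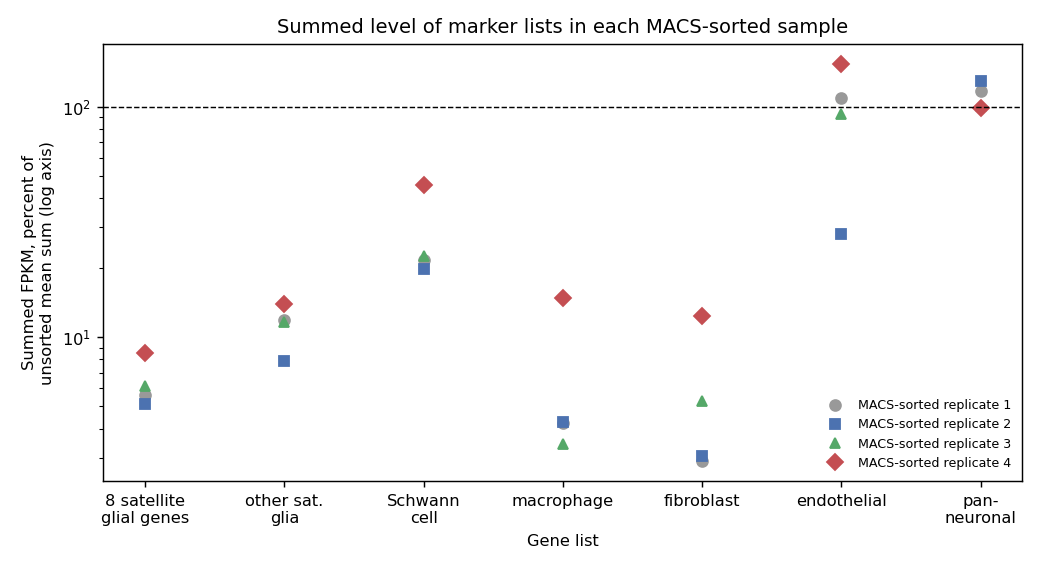
Summed FPKM of marker lists in each MACS-sorted sample as percent of the mean sum in 4 unsorted samples, on a log axis. Replicate 4 (red) lies above the other 3 for every list but the pan-neuronal one, where it is lowest at 98.1%.

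In relation to all RNA, the 8 genes together made up 0.684% to 0.738% of summed FPKM in intact samples. The share was 0.809% to 0.984% in unsorted samples, and after sorting it was 0.0448% to 0.0796%. Apoe supplied 56.2% to 66.6% of that sum in intact, 68.4% to 72.9% in unsorted, and 5.16%, 3.81%, 10.3% and 27.5% in MACS-sorted replicates 1 to 4. Glul was the largest contributor in all 4 sorted samples.

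The step before any sorting took in digestion, trituration and filtering, and unsorted samples pooled 2 mice where intact samples held 1. It was examined by comparing unsorted with intact DRG. The genes were not chosen by this difference, but the same samples served as the reference in that choice and their earlier results were known. Of the 8 genes, 3 were called higher in unsorted DRG, Ednrb, Mmd2 and Apoe, and 0 were called lower. A call required a two-sided adjusted p under 0.05 from limma with Benjamini-Hochberg adjustment over 12392 genes, a log2 ratio of group means beyond 0.5, and more than 5 FPKM as the mean of the group with the higher level. Over all genes tested 4.29% were called higher and 2.76% lower by the same criteria. The unsorted samples also entered the comparison with sorted DRG, so both comparisons share them.

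Ednrb rose most, from 22.3 ± 2.01 to 50.5 ± 7.88 FPKM (SD, n = 4 in each group), with a log2-fold change of 1.17 (standard error 0.12, limma adjusted p = 0.0013). Mmd2 rose from 31.5 ± 5.31 to 47.6 ± 4.73 FPKM (SD, n = 4 in each group), with a log2-fold change of 0.60 (standard error 0.12, limma adjusted p = 0.011). Apoe rose from 1370 ± 98.6 to 1969 ± 224 FPKM (SD, n = 4 in each group), with a log2-fold change of 0.52 (standard error 0.099, limma adjusted p = 0.0089). The Apoe call stood at the edge of the fold criterion, and its log2 ratio of means fell below 0.5 without intact replicate 2 (0.473), without unsorted replicate 1 (0.482) or 2 (0.479), and with these unsorted replicates averaged (0.481), which left 2 of the 8 genes called. With all 12 samples in the fit only Ednrb was called, and the adjusted p was 0.56 for Apoe and 0.35 for Mmd2.

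Slc1a3 passed the test, with a log2-fold change of 0.78 (standard error 0.10, limma adjusted p = 0.0025), and every unsorted sample exceeded every intact one, but its unsorted mean of 4.83 ± 0.372 FPKM (SD, n = 4) was below the 5 FPKM required for a call. Counting it, 4 of the 8 genes passed the adjusted p alone in the upward direction, against 14.8% of all genes, and 0 in the downward direction, against 7.79%. The groups were apart for these same 4 genes, and every unsorted sample lay above every intact one for 20.8% of all genes. The median log2-fold change of the 8 genes was 0.35, beside 0.01 over all genes tested.

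The other 4 genes did not pass. The log2-fold change was 0.17 for Glul (standard error 0.13, limma adjusted p = 0.33), -0.06 for Ndrg2 (standard error 0.19, adjusted p = 0.84), -0.12 for Fabp7 (standard error 0.16, adjusted p = 0.63) and -0.23 for Dbi (standard error 0.18, adjusted p = 0.39). Intact replicate 1 widened the intact spread of all 4. It stood at 1.38-fold the mean of the other intact samples for Fabp7 and 1.40-fold for Glul, with a median of 1.02 over all genes. Over 1223 abundant genes its median absolute log2 difference from the other intact samples was 0.302 to 0.353. The other intact pairs stood at 0.0620 to 0.0802. This sample therefore limits the whole comparison of unsorted with intact DRG. Without intact replicate 1 the log2-fold change was 0.30 for Glul (limma adjusted p = 0.0094) and 0.15 for Ndrg2 (adjusted p = 0.047). Both genes then passed the adjusted p and Ndrg2 turned upward, though neither reached the fold required for a call. In intact replicate 1 the summed macrophage level was 86.6 FPKM against 40.8 to 43.8 in the other intact samples, and the fibroblast level 942 against 496 to 588. The Schwann cell level was 4508 FPKM in that sample against 2488 to 3292, and the level of red blood cell genes 736 against 266 to 396. Their part in the higher Dbi and Ndrg2 values of that sample was not tested.

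**Figure D4:**
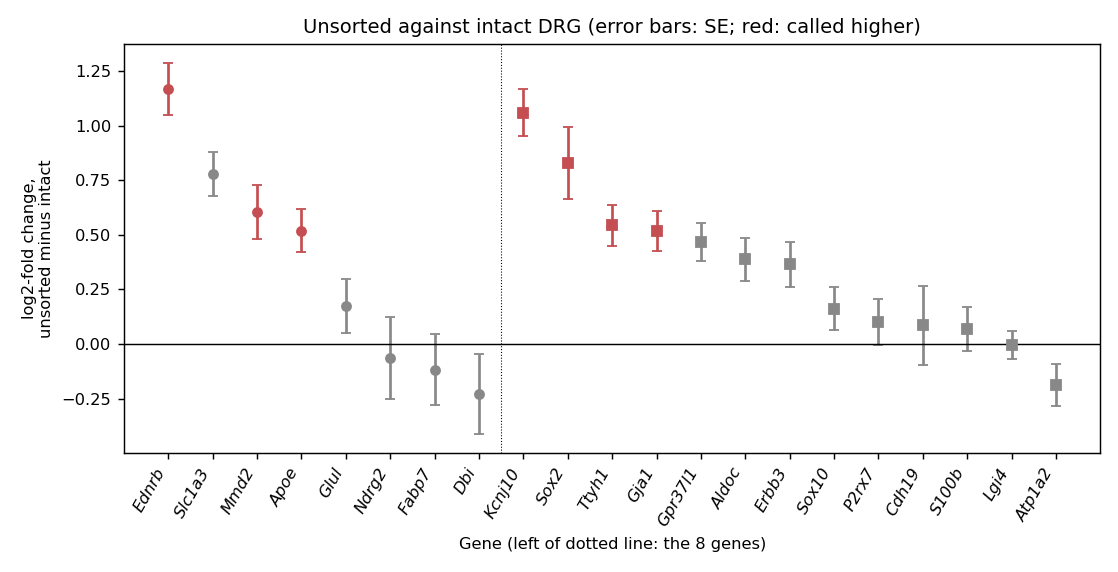
Log2-fold change between unsorted and intact DRG (positive: higher in unsorted) on the log2(FPKM + 0.1) scale, with standard error bars, for the 8 genes (circles, left) and 13 of the other satellite glia genes (squares, right), red where called higher. Ednrb and Kcnj10 rose most in the plotted sets. Gfap, at -3.17, is beyond the axis, and 1 further gene is not reported here.

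Markers of the other cells moved between intact and unsorted DRG as well. Of 6 endothelial genes 4 were called higher and 0 lower, of 6 fibroblast genes 5 lower, of 8 macrophage genes 4 lower, and of 7 Schwann cell genes and 8 pan-neuronal genes 0 in either direction. The shares of all genes tested were 4.29% called higher and 2.76% called lower. Ednrb, which endothelial cells can also express, rose by 1.17 on the log2 scale. The 6 endothelial genes had log2-fold changes from 0.59 for Cdh5 to 1.27 for Cldn5, with a median of 0.92. In MACS-sorted samples endothelial genes summed to 28.1% to 153% of the unsorted mean and Ednrb stood at 0.275% to 1.59%. The part of endothelial cells in the Ednrb difference was not tested. Unsorted replicates 1 and 2 were above replicates 3 and 4 for 7 of the 8 genes, all but Slc1a3. The share of all genes with this order was not computed, and unsorted replicates 1 and 2 were the most alike of all replicate pairs. The count can therefore not be read as a result about the 8 genes. The order also held for the summed macrophage level, at 26.4 and 25.8 against 13.0 and 16.0 FPKM. The summed fibroblast level followed it, at 337 and 328 against 168 and 223 FPKM. The summed endothelial, red blood cell and other satellite glia levels kept the same order, and the summed Schwann cell and pan-neuronal levels did not.

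A list of 15 other genes known from satellite glia and related glia was mostly lower after sorting, and 10 of the 15 kept less than 5% of the unsorted mean. It was fixed with earlier results of these data known, as were the other lists. Its counts and p-values therefore describe the list and give no independent evidence of the loss. Of the 14 tested, 13 were called lower in MACS-sorted than in unsorted DRG and 0 higher, with 12.5% of all genes called lower and 8.15% higher, and the median log2-fold change was -5.63 beside -0.04 over all genes. On the adjusted p alone all 14 were lower and 0 higher, against 27.7% and 18.8% of all genes. Kcnj10, the inwardly rectifying potassium channel of satellite glia, fell from 20.5 to 0.119 FPKM (log2-fold change -6.65, limma adjusted p = 4.2e-07). Sox2, a transcription factor of glial and progenitor cells, fell from 7.62 to 0.0509 FPKM and was listed at 0 in sorted replicates 1 and 2. S100b, a calcium binding protein, fell from 338 to 46.6 FPKM, and Gja1, the gap junction protein connexin 43, from 15.5 to 3.50 FPKM. Aldoc, an aldolase of glycolysis, had the smallest fall, from 75.4 to 31.6 FPKM. Many of these genes, Sox10, Erbb3, Lgi4 and Cdh19 among them, are also expressed by Schwann cells, and 6 of 7 Schwann cell genes were called lower as well. Of the other marker lists, 5 of 6 fibroblast genes, 0 of 4 macrophage genes tested and 0 of 6 endothelial genes were called lower. Of 8 pan-neuronal genes, 1 was called lower and 2 higher, Prph and Avil. All 6 red blood cell rows tested were called higher. All 4 macrophage genes passed the adjusted p in the lower direction but had unsorted means under 5 FPKM.

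Against intact DRG, 4 of the 15 were called higher in unsorted DRG and 0 lower, beside 4.29% and 2.76% of all genes. The 4 calls became 1 with all 12 samples in the fit and 2 without unsorted replicate 1. The genes called were Kcnj10 (log2-fold change 1.06), Sox2 (0.83), Ttyh1 (0.54) and Gja1 (0.52). Gfap, an intermediate filament protein raised in reactive glia, was at 7.19, 0.884, 1.10 and 3.13 FPKM in intact and 0.103 to 0.230 FPKM in unsorted replicates, a log2-fold change of -3.17 (limma adjusted p = 0.0082), but its intact mean of 3.07 FPKM was below that required for a call. After sorting it was at 0.172, 0.0519, 0.225 and 0.858 FPKM, which overlapped the unsorted values, and its mean was 206% of the unsorted mean with replicate 4 and 94.5% without it.

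**Figure D5:**
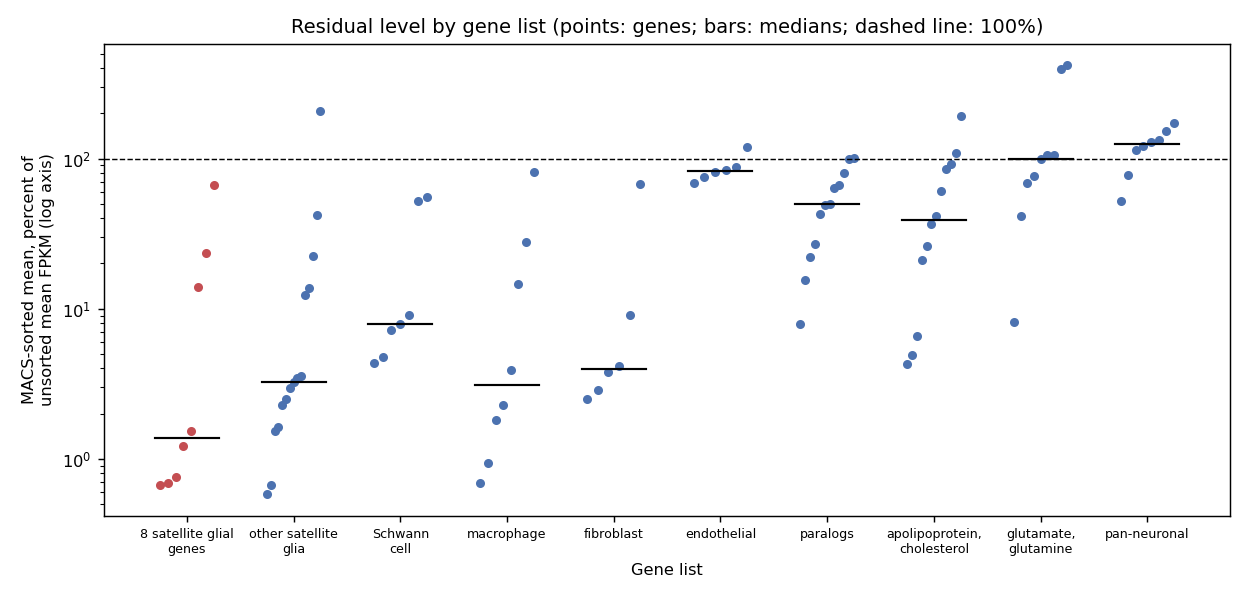
Mean level in 4 MACS-sorted samples as percent of the mean in 4 unsorted samples on a log axis, with 1 point per gene, bars at list medians and a dashed line at 100%. The 8 satellite glial genes (red) split into 5 between 0.668% and 1.54% and 3 between 13.9% and 67.0%.

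Relatives of the 8 genes differed widely in their residual levels. Of 12 paralogs 11 were tested, 4 were called lower after sorting and 0 higher, with a median log2-fold change of -1.03. Of all genes tested, 12.5% were called lower and 8.15% higher, with a median of -0.04. Fabp5, the epidermal fatty acid binding protein, stood at 34.3 FPKM after sorting and 34.4 FPKM before, where Fabp7 kept 1.54%. Mmd, the paralog of Mmd2, stood at 7.22 FPKM after sorting and 7.13 FPKM before. Ndrg1 fell from 138 to 10.9 FPKM (log2-fold change -3.68, limma adjusted p = 3.8e-07) and Ndrg3 from 49.6 to 24.4 FPKM, while Ndrg4, at 717 FPKM after sorting and 896 FPKM before, did not meet the fold required for a call. The neutral amino acid transporters Slc1a4 and Slc1a5 fell from 21.8 to 14.0 and from 10.8 to 4.63 FPKM. Ednra, the other endothelin receptor, was at 2.43 FPKM before and 0.379 FPKM after sorting, below the level required for a call. Slc1a2, the transporter GLT-1, had a mean of 0.566 FPKM in unsorted DRG and was not tested. Between intact and unsorted DRG, 1 paralog was called higher, Slc1a4 (log2-fold change 0.65, limma adjusted p = 0.0047), and 0 lower, beside 4.29% and 2.76% of all genes.

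Genes that handle glutamate and glutamine beside Slc1a3 and Glul did not move together. Of 8 tested, 3 were called lower after sorting and 1 higher, beside 12.5% and 8.15% of all genes. Slc38a1 and Slc38a2, which carry glutamine into cells, fell from 12.6 to 5.25 and from 74.4 to 51.1 FPKM, and the vesicular glutamate transporter Slc17a7 fell from 80.7 to 6.59 FPKM, whereas its relative Slc17a8 rose from 3.19 to 12.7 FPKM. In unsorted against intact DRG, Slc38a1 and Slc17a7 were called higher, with log2-fold changes of 0.70 and 1.06, and 0 of 7 were called lower. The shares of all genes were 4.29% higher and 2.76% lower.

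Of 12 genes of apolipoproteins and cholesterol transport beside Apoe, 6 were called lower after sorting and 1 higher, against 12.5% and 8.15% of all genes. Apod, an apolipoprotein that also marks fibroblasts and Schwann cells, fell from 94.5 to 6.19 FPKM, and Clu, or clusterin, from 204 to 43.1 FPKM. Of the receptors that take up apolipoprotein E, Vldlr fell from 7.18 to 0.354 FPKM and Lrp1 from 10.6 to 3.90 FPKM, whereas Lrp8 rose from 4.14 to 7.94 FPKM. Between intact and unsorted DRG, Clu, Pltp, Abcg1 and Scarb1 were called higher beside Apoe, with log2-fold changes from 0.58 to 0.72, and Apod (-2.05, limma adjusted p = 0.0040) and Lrp8 (-0.55, adjusted p = 0.0465) lower. Of all genes tested, 4.29% were called higher and 2.76% lower in that comparison. Only 1 of the 2 lower calls was left under each of several alternatives, among them all 3 rescalings and no filter on low values. Of the endothelin genes beside Ednrb and Ednra, the converting enzymes Ece1 and Ece2 were tested and 0 were called in either comparison. On the adjusted p alone Ece1 passed in both, in opposite directions. Its log2-fold change was -0.29 after sorting (limma adjusted p = 0.036) and 0.45 in unsorted against intact DRG (limma adjusted p = 0.0071).

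The genes whose profile over the 12 samples was most like the mean of the 8 satellite glial genes were found by Pearson's r on the log2(FPKM + 0.1) scale, among 12283 genes. The 12 points fall into 3 groups, and 675 genes had an r above 0.95. The closest gene outside the set was Atp1b2 (r = 0.9995), the β2 subunit of the sodium pump, with a residual level of 2.34%. It was followed by Acsbg1, an acyl-CoA synthetase, at 0.849%, and by Arhgef26, 5930403L14Rik, Serpine2, Sipa1l2, Car5b, Sox2, Ugt1a6a and Sfrp5, with residual levels from 0.466% to 16.0%. Within the set r ran from 0.999 for Mmd2 through 0.994 for Fabp7, Apoe and Ednrb, 0.990 for Slc1a3, 0.975 for Ndrg2 and 0.972 for Dbi to 0.846 for Glul, values to which each gene itself contributed.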

How the data were processed

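RNA of 12 DRG samples was sequenced, 4 in each of 3 groups named by the sample labels. The authors aligned reads to mm10 with TopHat2, merged lanes with SAMtools and estimated expression with Cufflinks 2.1.1, and the deposited values are FPKM for 24490 genes. Group differences in FPKM are relative to the RNA sequenced, so RNA of other cells lowers the value of a gene. The study's test, CuffDiff, needs reads, and limma 3.58.1 on R 4.3.3 was used instead, on log2(FPKM + 0.1) with an intensity trend, for genes that averaged 1 FPKM or more in the 8 samples compared (12038 genes for the step of sorting and 12392 for the step of dissociation). Fold changes on this scale understate the change of low genes. Residual levels are ratios of FPKM without a pseudocount over 12019 genes. P-values set a group difference against the spread between samples, which the paper describes as 4 biological replicates per condition. The labels number the samples and do not say whether their mice were separate.

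The 8 genes and all lists were chosen with earlier results of these data known. The text names the 8 genes, genes of the lists fixed for this work (other satellite glia genes, paralogs, genes of glutamate, apolipoprotein and endothelin pathways, and cell type markers), and the 10 other genes with the highest r to the mean centred profile of the 8. A few list genes are counted but their own values are not reported here. Depth is not part of FPKM. An estimate was made from the steps between low FPKM values, assuming fragments of 150 bases. Fragments behind a value follow from it and from the longest annotated transcript of the gene, so intervals cover counting error only. The procedure was tested on simulated data. Alternatives covered pseudocounts, filters, all samples in the fit, a replicate block, no trend, 3 rescalings, unsorted replicates 1 and 2 averaged, and each replicate left out.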

Additional observations from a re-analysis of the deposited data

Results flagged for a closer look

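In 6 of the 24 combinations of gene and group, 1 sample stood apart from the other 3 by more of the group's range than Dixon's 95% critical value, where chance gives about 1 in 20. In MACS-sorted replicate 4, Fabp7 was at 10.8 FPKM, Ednrb at 0.801 FPKM and Mmd2 at 0.930 FPKM, all above the other sorted samples. In intact replicate 1, Dbi was at 414 FPKM and Ndrg2 at 109.7 FPKM, both above the other intact samples. Apoe in intact replicate 2, at 1222 FPKM, was below the other intact samples.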

How the results depend on the processing

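The median residual level of the 8 genes, 1.38%, ranged from 0.611% to 1.72% when single replicates were left out, and was 1.46% with median-ratio size factors, 2.04% with quantile normalization, 1.47% with red blood cell genes removed and 1.44% with unsorted replicates 1 and 2 averaged. Quantile normalization raised the residual of Slc1a3 from 0.754% to 2.36%, and moved the median log2-fold change of all genes from -0.04 to 0.10.

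The 3 calls among the 8 genes in unsorted against intact DRG became 1 with all 12 samples in the fit and ranged from 2 to 3 over left-out replicates. For the other satellite glia genes the 4 calls became 1 with all 12 samples and ranged from 2 to 5, with 2 without unsorted replicate 1. The 2 lower calls in the paralog, glutamate, apolipoprotein and endothelin lists became 1 with no filter on low values, with no trend, under all 3 rescalings and with unsorted replicates 1 and 2 averaged, and ranged from 1 to 2 over left-out replicates. Without intact replicate 1 the log2-fold change of Ndrg2 was 0.15 and that of Fabp7 0.00028, and without unsorted replicate 3 that of Fabp7 was 0.0013, so both changed sign, and over left-out replicates they ranged from -0.15 to 0.15 and from -0.20 to 0.0013. The cause was not tested.

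Over all genes, unsorted against intact DRG gave 531 higher and 342 lower calls, 343 and 431 with red blood cell genes removed, 421 and 408 with quantile normalization, and from 376 to 591 higher and from 187 to 334 lower over left-out replicates, with 224, 203 and 187 lower without unsorted replicates 1, 3 and 4. MACS-sorted against unsorted DRG gave 981 higher and 1505 lower calls, 1188 and 1340 with median-ratio factors, and 1382 and 1285 with quantile normalization. Shared replicate numbers did not pair the samples, since same-numbered samples correlated in their deviations between -0.14 and 0.07 over the 3 pairs of groups. With the replicate block the calls were 541 and 358, and 991 and 1516, and the adjusted p was 0.027 for Apoe and 0.017 for Mmd2, with no call among the 8 genes changed. Of the other values, 221 counts and medians stayed within 1.5 times the value given or within the spread between replicates. A further 240 values of single genes kept their direction and side of the adjusted p threshold, or for residual levels moved by less than the spread between replicates, and among these Apoe lost its call wherever its log2 ratio of means fell below 0.5. The few fragments behind Slc1a3 and Mmd2 after sorting limit their residual levels, and no setting tests whether the residual RNA came from satellite glia.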
